A study of Mus musculus with 11 samples.

Results

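Transcripts of 8 macrophage genes were followed in fluorescent adrenocortical cells sorted from fetal mice with and without the steroidogenic acute regulatory protein: the scavenger receptors Cd163, Mrc1, Marco, Msr1 and Stab1, the complement and phagocytic receptors Vsig4 and Timd4, and Cd5l, a protein that macrophages secrete. They were taken by name from 17178 genes with a symbol on the array, together with every probe whose RefSeq accession belongs to them, which gave 11 probes. They were chosen by their known role and selected on earlier results of the same comparison between genotypes, so their differences between genotypes are a description and carry no test. All 8 passed the filter on dim probes, which asked that 4 or more of the 11 arrays measure the probe well above background. Vsig4 passed it with exactly 4, of which 3 were knockout arrays and 1 was a wild-type array.

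The knockout group was 4 mice of genotype Star-/-, all labelled male, and the wild-type group was 7 mice of genotype Star+/+, labelled 3 male and 4 female. Cells of every mouse were sorted for an eGFP reporter; the sources used here do not name the promoter that drives it, and hence not the cells it marks. Adrenals of all mice were taken at E17.5 or E18.5, and 1 array was hybridised with amplified RNA of the eGFP-positive cells of each mouse. The arrays lay on 3 slides: slide 1 held knockout arrays 1 and 2 with wild-type arrays 1 and 2, slide 2 held knockout arrays 3 and 4 with wild-type array 3, and slide 3 held wild-type arrays 4 to 7. A fitted difference between genotypes takes slide into account and therefore uses the 7 arrays of slides 1 and 2, 4 of them knockout and 3 wild-type, while those of slide 3 inform only its error.

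Scavenger receptors bind modified lipoproteins, dying cells, microbes or complexes of blood proteins and carry them into the cell. Macrophages that settle in fetal tissues express many of them, in combinations that differ between tissues. Cd163 takes up haemoglobin bound to haptoglobin, and in human monocytes it is known to be induced by glucocorticoids and by interleukin 10. Cd5l, like Cd163, Marco and Msr1, has scavenger receptor cysteine-rich domains, and is secreted by tissue macrophages as an inhibitor of apoptosis that travels in blood bound to immunoglobulin M.

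Star itself had levels of 1.58, 2.59, 2.05 and 3.27 in the knockout arrays 1 to 4, against a lowest level of 3.21, a median of 5.87 and a highest of 7.86 in the wild-type arrays. Levels here and below are log2 signals relative to the 75th percentile of the array's probes, and levels of different genes are not compared, because probes differ in brightness. The knockout and wild-type ranges of Star met at 1 array of each group, and the sources used here do not say whether the probe lies in the deleted part. The 75th percentile of the signal itself was 190 to 706 in knockout arrays and 115 to 463 in wild-type arrays, with the lowest value in wild-type array 3, whose median correlation with the rest was also the lowest (0.877). Wild-type array 4, labelled female, had the Y-linked transcript Ddx3y at 2.70, while the other 3 wild-type arrays labelled female had it between -6.74 and -5.27, not well above background. All 11 tested adrenocortical markers had a negative difference between genotypes, with a median of -1.46, and Nr0b1, an orphan nuclear receptor of the adrenal cortex, passed the threshold (-5.58 ± 0.89, SE; adjusted p = 0.0277, limma). Over all 20909 genes and unnamed features tested, 43.0% had a positive difference and the fit called 0.23% lower in knockout mice.

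Cd163 was lower in knockout than in wild-type mice on slide 1 and close to wild-type on slide 2. Its levels in knockout arrays 1 to 4 were -4.96, -2.19, -1.14 and -1.66. In the wild-type arrays they were 3.03 and 2.94 on slide 1, -1.08 on slide 2, and -1.70, 0.78, 2.91 and 2.51 on slide 3. The groups overlapped, because wild-type array 4 lay among the knockout arrays; wild-type array 3 lay just above the highest of them, and the other wild-type arrays lay further above. The mean level was -2.49 ± 1.70 (SD, n = 4) in knockout mice and 1.34 ± 2.03 (SD, n = 7) in wild-type mice. The fitted difference was -4.06 ± 1.44 (SE), 16.7-fold lower, and consisted of -6.56 within slide 1 and -0.32 within slide 2. It was -6.56 once wild-type array 3 was left out, which removes slide 2 from the comparison. Its probe was well above background on all 11 arrays.

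Cd5l was far higher in every knockout array than in any wild-type array. Its levels were 7.02, 6.77, 7.98 and 6.54 in knockout arrays 1 to 4, against a lowest level of -1.25, a median of 0.08 and a highest of 2.96 in the wild-type arrays. The fitted difference was 6.12 ± 0.90 (SE), or 69.7-fold, with 5.38 within slide 1 and 7.24 within slide 2. Of 20909 genes and unnamed features tested, 7 had a larger difference. The 2 slides gave the same direction. All 4 mice of slide 1 were labelled male, and on slide 2 the knockout mice were labelled male and the wild-type mouse female; with sex as a further term the fitted difference was 5.40 and did not pass the threshold (limma adjusted p = 0.0797).

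Timd4, a receptor for phosphatidylserine on dying cells, followed the same direction. Its levels were 2.57, 2.88, 2.96 and 3.20 in knockout arrays 1 to 4, against a lowest level of -6.13, a median of -1.94 and a highest of -0.45 in the wild-type arrays. The groups did not overlap, and the knockout arrays lay within a span of less than 1 unit while the wild-type arrays spread over 5.68. The fitted difference was 4.75 ± 1.08 (SE), or 27.0-fold, with 3.32 within slide 1 and 6.90 within slide 2. Timd4 was well above background on all 4 knockout arrays and on 5 of 7 wild-type arrays, and wild-type array 3 was 1 of the 2 where it was not, so the value within slide 2 is set against a signal at background.

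Mrc1, the mannose receptor, was at 2.79, 3.16, 3.50 and 2.98 in knockout arrays 1 to 4, against a lowest level of -0.79, a median of 1.31 and a highest of 2.07 in the wild-type arrays. Marco, a class A scavenger receptor for bacteria and particles, was at 3.60, 4.73, 3.75 and 2.95 in knockout arrays, against a lowest level of -3.57, a median of 1.71 and a highest of 2.83 in the wild-type arrays. For both genes every knockout array lay above every wild-type array, for Marco by a small margin between knockout array 4 and wild-type array 2. The fitted difference was 1.36 ± 0.51 (SE) for Mrc1, with 0.99 within slide 1 and 1.91 within slide 2. It was 2.50 ± 1.36 (SE) for Marco, with 1.92 within slide 1 and 3.36 within slide 2.

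Stab1, a receptor for modified lipoproteins and matrix fragments that is found on sinusoidal endothelium as well as on macrophages, was at 3.34, 3.47, 4.04 and 5.24 in knockout arrays 1 to 4, against a lowest level of 0.61, a median of 3.04 and a highest of 3.72 in the wild-type arrays. The groups overlapped, and the difference came from slide 2: it was 0.30 within slide 1 and 4.03 within slide 2, with 1.79 ± 0.87 (SE) in the fit. Its second, dimmer probe gave 0.68 within slide 1 and 1.62 within slide 2, and was well above background on 4 knockout and 2 wild-type arrays. The 12 tested endothelial markers had a median difference of 0.79, with 0.16 within slide 1 and 1.78 within slide 2. In limma, 0 of them passed the threshold or had an unadjusted p under 0.05, beside 0.837% and 3853 of all 20909 tested. The part of the endothelial markers in the Stab1 values was not tested.

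Msr1, the class A macrophage scavenger receptor, showed no steady direction. Its brightest probe was at -1.09, -2.15, -1.38 and -1.42 in knockout arrays 1 to 4, against a lowest level of -6.20, a median of -1.92 and a highest of 0.05 in the wild-type arrays. Slide 1 gave a difference of -1.28 and slide 2 one of 1.59, while the fit gave -0.13 ± 1.17 (SE). The other probes of Msr1 gave fitted differences of 1.28 and 0.48, with the same pair of signs by slide. This brightest probe was well above background on all 4 knockout arrays and on 4 of 7 wild-type arrays. No Msr1 probe was well above background on wild-type array 3, so the values within slide 2 are set against signals at background.

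Vsig4, a complement receptor of tissue-resident macrophages, was dim throughout. Its levels were -2.62, -4.28, -5.06 and -3.61 in knockout arrays 1 to 4, against a lowest level of -6.98, a median of -6.18 and a highest of -3.44 in the wild-type arrays. The groups overlapped, and slide 1 gave a difference of 1.67 against -0.40 from slide 2, with 0.84 ± 0.86 (SE) in the fit. Only 1 wild-type array measured it well above background.

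**Figure D1:**
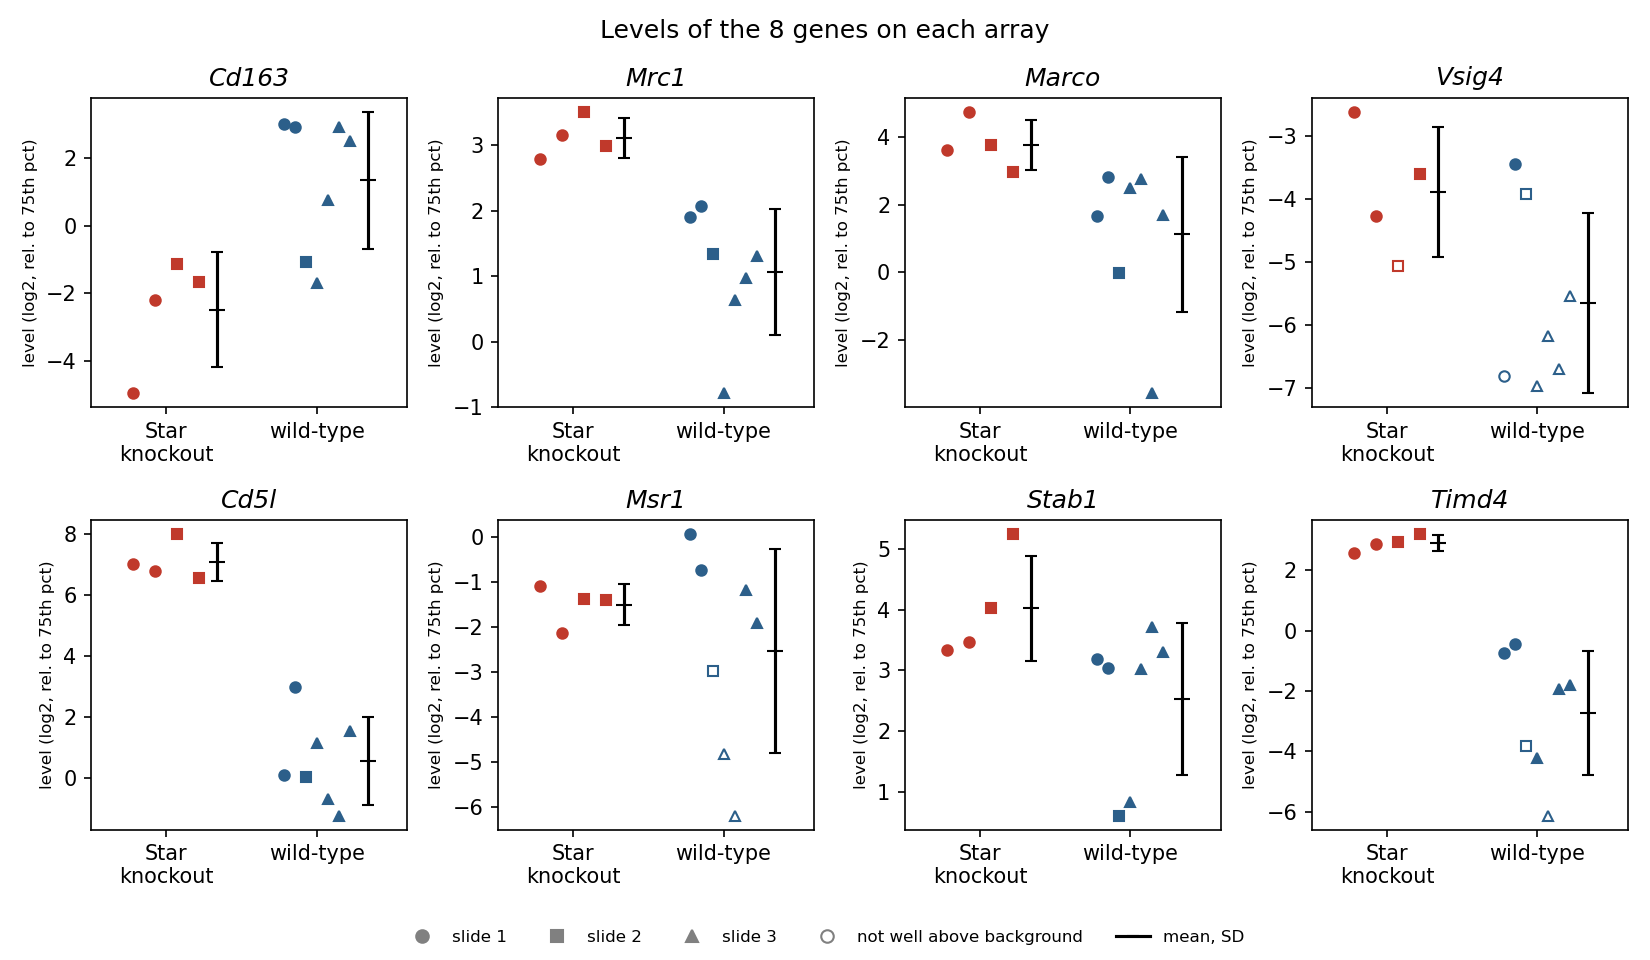
Level of each of the 8 genes (log2, relative to the 75th percentile of the array) for 4 knockout mice (left) and 7 wild-type mice (right), 1 point per array, with the mean and SD of each group beside the points. Open points mark arrays where the probe was not well above background; Cd5l and Timd4 separate the groups widely, while for Cd163 wild-type array 4 lies among the knockout arrays and wild-type array 3 just above them.

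Over the 8 genes, the fitted difference was positive for 6 and negative for 2, with a median of 1.57, beside a median of -0.16 over all 20909 tested, of which 43.0% were positive. With the mean of all probes of a gene it was positive for 7, with Msr1 at 0.54. The sign was positive in both slides for 5 genes, negative in both for Cd163, and opposite between slides for Vsig4 and Msr1. In 4 genes (Mrc1, Marco, Cd5l and Timd4) every knockout array lay above every wild-type array, which 4.12% of all tested did; 3.23% of all tested had every knockout array below, and none of the 8. At an adjusted p under 0.05 the fit called 0.837% of all tested, 0.607% higher and 0.23% lower in knockout mice, and among the 8 it called Cd5l. An unadjusted p under 0.05 in limma was found for 3853 of the 20909 tested. Nothing is read from these counts, because the genes were selected on this contrast. The call of Cd5l was lost without any 1 of the 4 knockout arrays or without wild-type array 1 or 3, when its difference lay between 5.38 and 6.37. It was also lost within slide 1 alone (5.38) and within slide 2 alone (7.24), and with sex as a further term, whether wild-type array 4 was kept (5.40) or left out (5.22).

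**Figure D2:**
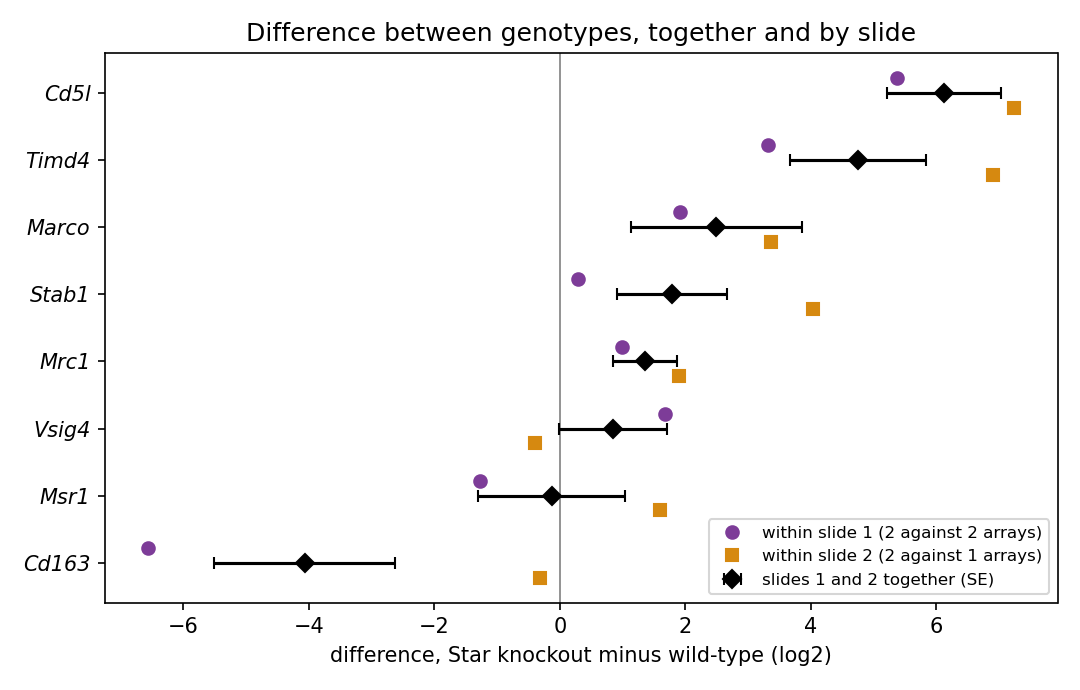
Difference between genotypes (log2, Star knockout minus wild-type) for each of the 8 genes. Diamonds give the fit over slides 1 and 2 with its SE, circles slide 1 (2 knockout against 2 wild-type arrays) and squares slide 2 (2 against 1); Cd163 is the only 1 of the 8 that is negative in both slides, at -6.56 and -0.32.

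The promoter windows of Cd163, Cd5l and Timd4 are shown because these 3 genes had the largest differences, in opposite directions. Each is the RefSeq window from 250 bases before to 50 bases after the annotated start, on the coding strand, in build GRCm38.p6. Capitals mark, on either strand, the core GAGGAA bound by PU.1, the core TGCTGA bound by MAF factors and the core TGTTCT bound by the glucocorticoid receptor. PU.1 and MAF factors are known regulators of macrophage genes.
Cd163 (chr6:124304401-124304700, plus strand): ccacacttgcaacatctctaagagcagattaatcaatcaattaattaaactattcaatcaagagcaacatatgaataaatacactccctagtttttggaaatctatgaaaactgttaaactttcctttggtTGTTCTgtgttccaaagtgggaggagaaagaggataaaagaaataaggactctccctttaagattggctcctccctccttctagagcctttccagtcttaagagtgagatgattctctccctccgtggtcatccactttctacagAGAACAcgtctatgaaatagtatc
Cd5l (chr3:87357631-87357930, plus strand): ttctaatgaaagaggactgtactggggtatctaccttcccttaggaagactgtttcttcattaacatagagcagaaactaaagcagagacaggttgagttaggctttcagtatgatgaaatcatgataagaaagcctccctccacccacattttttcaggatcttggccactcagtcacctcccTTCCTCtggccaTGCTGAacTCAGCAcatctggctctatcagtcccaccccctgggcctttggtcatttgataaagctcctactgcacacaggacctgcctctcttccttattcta
Timd4 (chr11:46810549-46810848, plus strand): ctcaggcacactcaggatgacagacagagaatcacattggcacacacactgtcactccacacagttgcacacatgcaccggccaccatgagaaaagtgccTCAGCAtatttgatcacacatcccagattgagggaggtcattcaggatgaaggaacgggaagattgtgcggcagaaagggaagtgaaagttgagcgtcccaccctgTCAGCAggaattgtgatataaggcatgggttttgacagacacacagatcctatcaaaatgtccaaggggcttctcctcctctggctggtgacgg
Cd163 held 2 matches to the glucocorticoid receptor core and none to the other motifs. Cd5l held 1 match to the PU.1 core and 2 to the MAF core, in opposite orientations 2 bases apart. Timd4 held 2 matches to the MAF core. Promoter windows were found for 7 of the 8 genes, and among these the PU.1 core occurred in 5, the MAF core in 4 and the glucocorticoid receptor core in Cd163 only. Of all 32851 promoter windows in the table, 28.3% held the PU.1 core, 19.5% the MAF core and 19.0% the glucocorticoid receptor core. These are matches of letters in one window, without evidence of binding.

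The listed general macrophage markers, which were chosen with earlier results of these data known, were higher in the knockout samples. All 23 tested general macrophage markers had a positive difference, with a median of 3.14, and 22 of them were positive in both slides. In 21 of the 23 every knockout array lay above every wild-type array, beside 4.12% of all tested. The fit called 0.607% of all tested higher. The 4 that passed the threshold, each higher in knockout mice by limma's adjusted p, were Gpnmb, a glycoprotein of lipid-loaded phagocytes (7.93 ± 0.79, SE; adjusted p = 0.00350), the lysozymes Lyz1 (4.48 ± 0.63; adjusted p = 0.0191) and Lyz2 (4.62 ± 0.78; adjusted p = 0.0326), and Spi1, which encodes PU.1 and was at least 2.58-fold higher, since each wild-type array measured it near background (adjusted p = 0.0427). A bound of this kind sets the mean of the brighter group against, per array, the higher of the dim probe's own value and the lowest signal counted as well above background. Markers that did not pass included Csf1r, the receptor for macrophage growth factor (2.69 ± 0.59), and Adgre1, which encodes F4/80 (2.60 ± 0.76).

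The mean level of the 23 markers was 3.72, 3.33, 4.24 and 3.93 in knockout arrays 1 to 4, against 1.48, 1.15, -1.23, -1.44, -0.22, 0.89 and 0.03 in wild-type arrays 1 to 7. The log2 of their summed signal ran from 9.73 to 10.6 in knockout arrays and from 4.90 to 8.35 in wild-type arrays. Each knockout array measured all 23 well above background, and the wild-type arrays measured 15 to 22. In these samples more macrophages among the sorted cells and more macrophage RNA per cell cannot be told apart. Wild-type arrays 3 and 4, which had the lowest Cd163 levels of the wild-type group, also had its lowest means of these markers. Their means of the chromaffin cell markers (0.36 and 0.12) and endothelial markers (-0.60 and 0.83) were the lowest of that group too.

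While these markers and most of the 8 genes were higher in knockout mice, Cd163 went the other way. The level of Cd163 minus the mean level of the other 7 was -7.19, -4.27, -3.39 and -3.93 in knockout arrays 1 to 4, against a lowest value of 0.06, a median of 2.61 and a highest of 4.34 in the wild-type arrays. The zero of such a difference has no meaning, since probes differ in brightness, but its change between arrays does. The groups did not overlap, the fitted change was -6.53 ± 1.38 (SE), and it was -8.32 within slide 1 and -3.84 within slide 2. The slide 2 value is set against wild-type array 3 alone, which measured 5 of the 8 genes well above background. Vsig4, Msr1 and Timd4 were not, so the mean set against Cd163 on that array includes signals at background. Without wild-type array 3 the fitted change was -8.32.

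Relative to the 23 general macrophage markers the gap was wider. These markers were chosen with earlier results of these data known, so the width of the gap depends on that choice and is a description. Cd163 minus their mean was -8.68, -5.52, -5.38 and -5.59 in knockout arrays 1 to 4, against a lowest value of -0.26, a median of 1.55 and a highest of 2.48 in the wild-type arrays. The fitted change was -7.52 ± 1.07 (SE), with -8.77 within slide 1 and -5.64 within slide 2. On slide 2, where the Cd163 level itself hardly differed between genotypes, the macrophage markers had a median difference of 5.15. Both slide 2 values are set against wild-type array 3 alone, which measured 15 of the 23 markers well above background. Wild-type arrays 3 and 4, the wild-type arrays with the lowest Cd163 levels, lay at 0.15 and -0.26 on this measure, above all 4 knockout arrays.

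**Figure D3:**
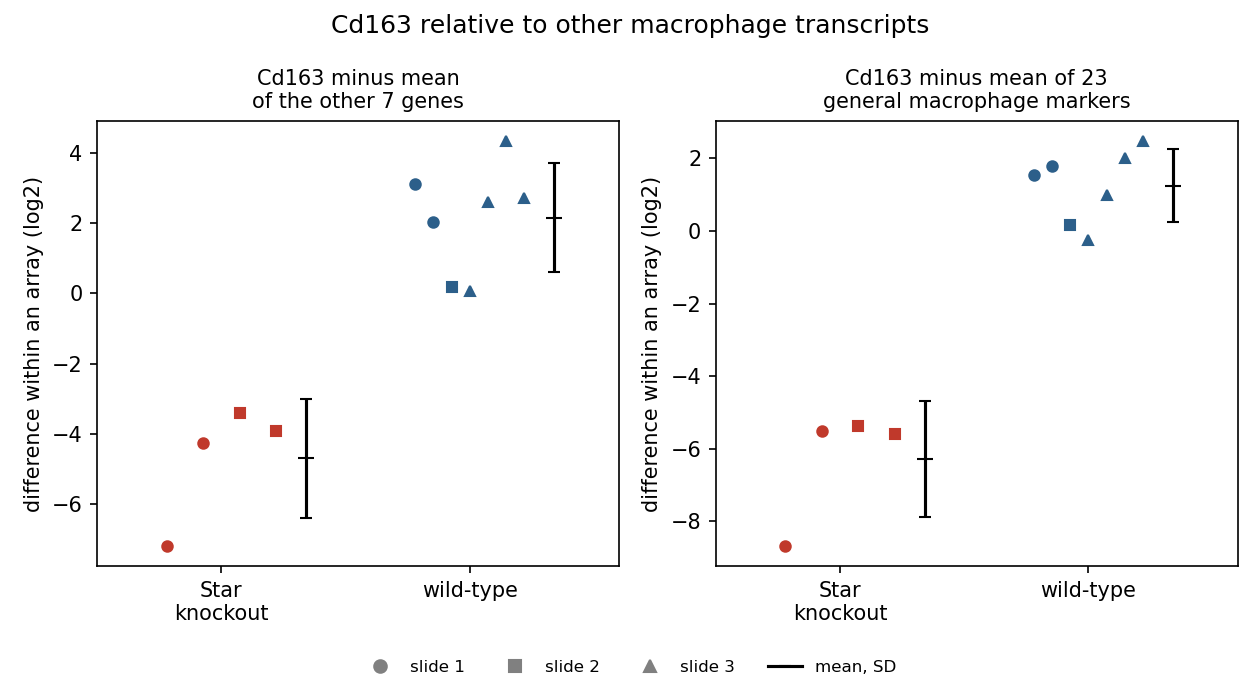
Cd163 level minus the mean level of the other 7 genes (left panel) and minus the mean of 23 general macrophage markers (right panel), as log2 differences within each array, with knockout arrays on the left of each panel, wild-type arrays on the right, and the mean and SD of each group. In the right panel the 4 knockout arrays lie between -8.68 and -5.38 and the 7 wild-type arrays between -0.26 and 2.48.

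Both measures were taken for the other genes. Set against the mean of the other members, the fitted change was 5.12 ± 0.99 for Cd5l and 3.55 ± 0.93 for Timd4 (SE). For both the groups did not overlap, and both genes lie in the mean set against Cd163. For the remaining genes it lay between -2.03 and 0.97, and the groups overlapped. Relative to the macrophage marker mean, the fitted change was -3.58 ± 0.96 for the brightest probe of Msr1, whose other probes had higher fitted differences. It was -2.61 ± 1.40 for Vsig4, -2.09 ± 0.51 for Mrc1, -1.66 ± 0.43 for Stab1 and -0.96 ± 1.99 for Marco (SE). All 5 changes were negative within each of the 2 slides, so the higher Mrc1 level in knockout mice was a smaller difference than that of these macrophage markers. Cd5l and Timd4 differed more than the markers, by 2.67 ± 1.30 and 1.30 ± 0.93. Cd163 had the lowest and Cd5l the highest value of the 8. On this measure the groups did not overlap for Mrc1, Stab1, Cd5l and Timd4 either.

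Among the 43 tested general and resident macrophage markers, none had a fitted difference as low as that of Cd163, and 1, Gpnmb, had one above that of Cd5l. The 20 tested markers of resident macrophages had a median difference of 2.28, with 1.00 within slide 1 and 3.95 within slide 2. Of these, 16 were positive, and 0 passed the threshold in limma, while 11 had an unadjusted p under 0.05. Over all 20909 tested, 43.0% were positive, 0.837% passed and 3853 had an unadjusted p under 0.05 in limma. The smallest p in this list belonged to Nr1h3, the liver X receptor alpha (2.77 ± 0.57), the lectin Clec4n (3.76 ± 0.86) and the complement components C1qb (3.26 ± 0.81) and C1qa (4.23 ± 1.12). The 4 negative members, named after their values were seen, were Cbr2 (-1.42 ± 0.90), the platelet factor Pf4 (-0.82 ± 0.72), the coagulation factor F13a1 (-0.55 ± 0.90) and Sall1 (-0.33 ± 0.38). Of these, Pf4 and Sall1 were negative in both slides, and Cbr2 and F13a1 on slide 1 only.

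Among other scavenger receptors, of 15 tested, 10 had a positive difference, the median was 1.34, 0 passed the threshold in limma and 9 had an unadjusted p under 0.05. Of all 20909 tested, 3853 had an unadjusted p under 0.05. The smallest p belonged to Scarb2, a lysosomal membrane receptor (3.35 ± 0.66), Cxcl16, a chemokine that also binds oxidised lipoprotein (3.10 ± 0.75), Stab2 (2.26 ± 0.60) and the endocytic receptor Lrp1 (2.41 ± 0.67). In all 4 every knockout array lay above every wild-type array, as in 6 of the 15 tested here and in 4.12% of all tested. Of 8 other tested genes with scavenger receptor cysteine-rich domains, the domain family of Cd163 and Cd5l, 0 passed and 2 had an unadjusted p under 0.05. Their median difference was 0.30, the smallest p was that of Prss12 (1.59 ± 0.39), and Lgals3bp, a secreted member like Cd5l, was at 2.01 ± 0.98.

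Genes for the uptake of dying cells, the process in which Timd4 acts, had a median difference of 0.30 over 20 tested. Trem2, a lipid-sensing receptor of phagocytes, rose (3.92 ± 0.50, SE; limma adjusted p = 0.0132), at 6.36 to 7.27 in knockout arrays and 0.77 to 3.74 in wild-type arrays. Cd300lf, a lipid receptor (4.31 ± 0.94), and Dock1, an engulfment factor (-1.86 ± 0.41), did not pass. Trem2 was the 1 call of this list, and the fit called 0.837% of all tested. An unadjusted p under 0.05 in limma was found for 9 of the 20, and for 3853 of all 20909 tested.

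Haemoglobin and haem handling is the process of which Cd163 is the entry point. Of 20 tested genes, 16 had a positive difference, beside 43.0% of all tested, and the median was 1.29. Slc11a1, the phagosomal metal transporter NRAMP1, rose (4.88 ± 0.90, SE; limma adjusted p = 0.0467). It was the 1 call of this list, and the fit called 0.607% of all tested higher. The haem-degrading enzyme Hmox1 was at 5.41 to 6.67 in knockout arrays and 1.24 to 4.67 in wild-type arrays (2.94 ± 0.78), and neither it nor the biliverdin reductase Blvrb (1.27 ± 0.33) nor the haem transporter Slc48a1 (1.48 ± 0.39) passed the threshold. In these 3 genes, named for their small p in the fit, every knockout array lay above every wild-type array, in the opposite direction to Cd163. The same held for 9 of the 20 genes of the list and for 4.12% of all tested. Hp, which encodes haptoglobin, was at 1.31 ± 1.43.

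Glucocorticoid-responsive genes had a median difference of 0.36 over 17 tested, with 10 positive and 7 negative. None passed the threshold in limma, and 4 had an unadjusted p under 0.05, as did 3853 of all 20909 tested. Fkbp5 (-1.92 ± 0.76) was lower by a similar size in both slides, -1.91 and -1.95, whereas Per1 (2.96 ± 1.08) and Sgk1 (1.05 ± 0.41) had positive differences. Fam107a was at -2.41 ± 0.61 and each knockout array measured it near background, so its level there is a bound, at least 1.32-fold lower. Il10, listed with the resident macrophage markers, was at 1.13 ± 1.02. The list was measured in all sorted cells together, and how it stood in macrophages was not analysed here.

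**Figure D4:**
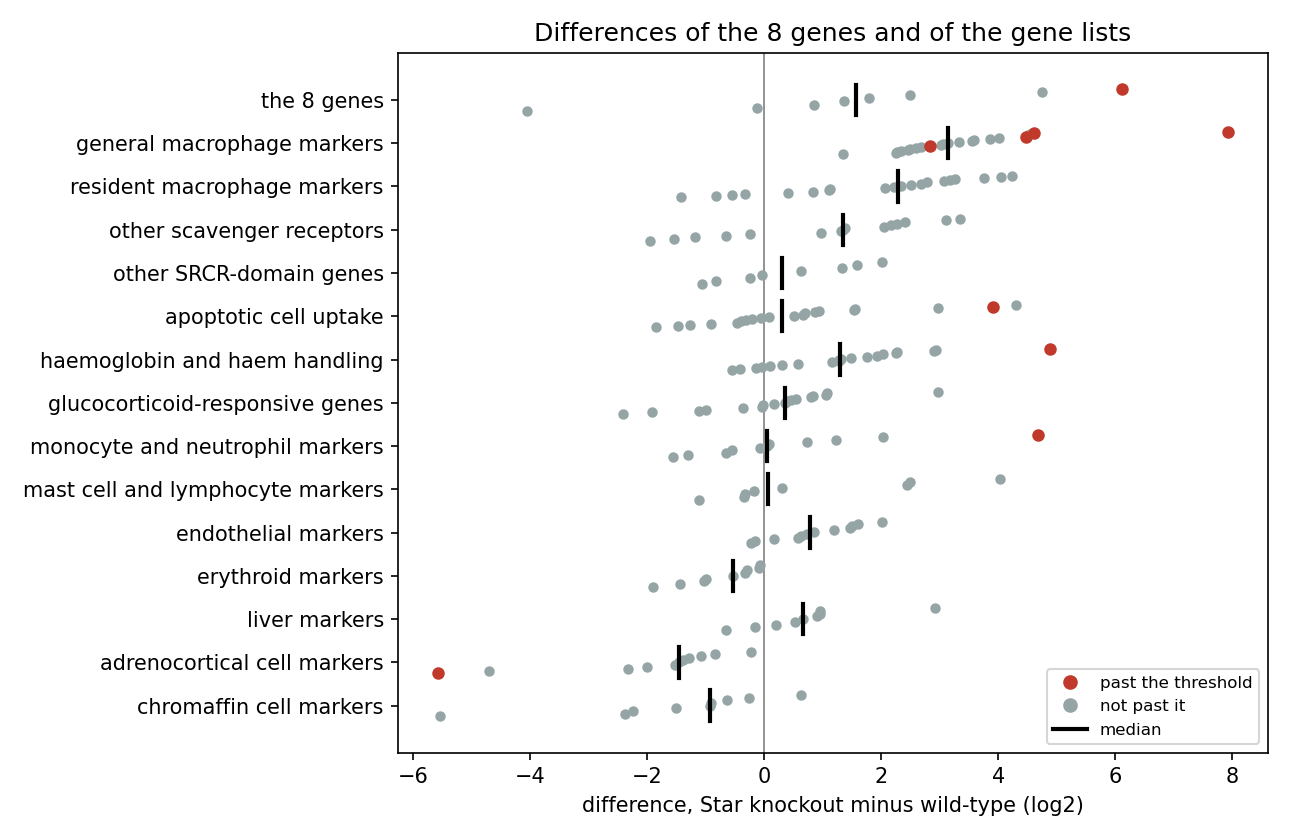
Difference between genotypes (log2, Star knockout minus wild-type) of each tested gene, 1 point per gene, for the 8 genes and for 14 gene lists, with the median of each as a bar and genes past the threshold in red. The general macrophage markers all lie above 0 with a median of 3.14, and Cd163 is the lowest point of the 8 genes at -4.06.

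Markers of other cell types were measured for the same samples. Csf3r, the receptor for granulocyte colony-stimulating factor, was the 1 call among 11 tested monocyte and neutrophil markers and was at least 12.8-fold higher in knockout mice (limma adjusted p = 0.0040), where each wild-type array measured it near background; the median of that list was 0.04. In limma, 0 of 9 tested erythroid markers passed (median -0.53, 1 with an unadjusted p under 0.05), 0 of 9 liver markers (median 0.66, 1 under 0.05), 0 of 8 mast cell and lymphocyte markers (median 0.07, 1 under 0.05) and 0 of 9 chromaffin cell markers (median -0.94, 1 under 0.05). Over all 20909 tested, the same fit called 0.837%, and 3853 had an unadjusted p under 0.05. The log2 of the summed liver markers, which bears on Cd5l and Marco because fetal liver also holds macrophages that express them, ran from 4.43 to 9.48 in knockout arrays and from 2.11 to 11.03 in wild-type arrays, with wide overlap. The median difference of the liver markers was 2.55 within slide 1 and -1.95 within slide 2. Wild-type array 6, with the lowest sum, also had the lowest Marco and Cd5l levels of the wild-type group. The highest sum was in wild-type array 5, and the highest wild-type Marco and Cd5l levels were in array 2. The part of the liver markers in the Cd5l and Marco values was not tested.

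Wild-type arrays differed among themselves more in some of these genes than in most others. The SD over the 7 wild-type arrays was 2.29 for Marco, 2.27 for Msr1, 2.06 for Timd4 and 2.03 for Cd163, which placed each above at least 91.9% of all tested, whose median SD was 0.98. Mrc1, at 0.95, lay near that median. The wild-type arrays were low in different genes: Marco was lowest in array 6, where Stab1 was highest, and Msr1 and Timd4 were lowest in array 5. Msr1 was not well above background on wild-type arrays 3, 4 and 5, nor Timd4 on arrays 3 and 5. The spread of these genes therefore includes signals at background.

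The genes most like Cd163 and Cd5l across arrays were found by Pearson's r over the 11 arrays after subtraction of each slide's mean, among 13541 named genes. Those most like Cd163 were Tmem177 (r = 0.932), the vesicle fusion protein Vti1a (0.924), Adgra1 (0.922), the proline dehydrogenase Prodh (0.921) and Pnmt, the adrenaline-forming enzyme of chromaffin cells (0.911). Pnmt was at -4.16 to -3.44 in knockout arrays and at -1.04 to 5.34 in wild-type arrays, a fitted difference of -5.54 ± 1.44 (SE) that did not pass the threshold, with -7.45 within slide 1 and -2.68 within slide 2. Those most like Cd5l were the lysosomal peptidase Dpp7 (r = 0.979), Gal3st1 (0.958), Os9 (0.957), the phospholipid transfer protein Pltp (0.943) and Olfr812 (0.934). Of these, Pltp passed the threshold (4.30 ± 0.43, SE; limma adjusted p = 0.00350), as did Olfr812 (3.64 ± 0.50; limma adjusted p = 0.0166). These r values describe arrays that share slides and genotypes, and the difference between genotypes was not removed from them. No macrophage marker was among the 5 genes most like Cd163. Nothing is read from this, because all 23 general macrophage markers differed between genotypes in the opposite direction to Cd163. Between Cd163 and Cd5l themselves r was -0.60, and between Cd5l and Timd4 it was 0.82.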

How the data were processed

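Gene expression was measured in eGFP-positive adrenocortical cells sorted from 11 fetal mice, 1 single-colour Agilent array each. RNA was linearly amplified from 1 ng per mouse, per the labels' protocols. Groups, sex and replicate numbers came from the labels and slides from the files; nothing is said of litters. The deposited scanner files hold spot intensity, background-subtracted by Agilent Feature Extraction, per the file headers (version 10.1.1.1 on slides 1 and 2, 10.5.1.1 on slide 3; the submitters' processing notes name 10.5.1.1). The authors' deposited series table holds log2 values that matched the values used here, up to a constant per probe, within 0.01 for 99.8% of each array's probes; its column medians ran from -0.17 to 0.90.

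Outlier spots (77 to 164 per array) were left out, spots of 1 probe averaged, and the array's 75th percentile subtracted from log2 processed signal. No probe was saturated. Among 41174 probes, 24844 were named through their accession and the RefSeq gene table of GRCm38.p6, and 16330 had no symbol. Promoter sequences are RefSeq's, of GRCm38.p6; the array files name another build and no coordinates of theirs are given. A gene was represented by its probe with the highest mean and tested if well above background on at least 4 arrays.

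Genotypes were compared with limma 3.58.1 (R 4.3.3), with terms for genotype and slide (7 residual degrees of freedom), two-sided, Benjamini-Hochberg over all 20909 tested (13577 of them named), threshold 0.05. The number of arrays limits the precision. The fit was tested on simulated data with known changes. The 8 genes, the 14 gene lists (204 of 219 genes on the array) and the motifs were chosen with earlier results of these data known. Genes named are the 8, up to 4 per list with the smallest p, and the 5 most like Cd163 and Cd5l; Csf1r, Adgre1, Lgals3bp, Hp, Il10, Ddx3y and the negative resident markers were added after their values were seen. Replicate numbers were not treated as pairs: deviations of same-numbered arrays correlated at 0.18, 0.22, -0.01 and 0.18. Alternatives concerned slide, sex, background, scaling, filter, probes, array weights and each array left out. Other tools were statmod 1.5.0, version 1.17.8 of data.table, Python 3.11.15, pandas 2.3.3, numpy 2.4.6 and matplotlib 3.10.9.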

Additional observations from a re-analysis of the deposited data

Results flagged for a closer look

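Knockout array 1 lay apart from the other 3 knockout arrays in Cd163 relative to the general macrophage markers, at -8.68 where the others lay between -5.59 and -5.38, and its gap to them exceeded Dixon's critical value for 4 samples. It was the 1 value marked in this way among 24 sets of arrays examined, where chance marks about 1 in 20. Without that array the Cd163 difference itself was -2.75, and Cd163 minus the mean of the other 7 genes was -5.35.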

How the results depend on the processing

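Genes past the threshold numbered 175 in the fit reported, 599 without the slide term, 473 with slide as a random block, 645 with normexp background, 408 with the filter on all 11 arrays, 330 with array weights, 28 with sex as a further term, 78 with sex as a further term and wild-type array 4 left out (chosen after seeing the data), 0 within slide 1 and 0 within slide 2 (3893 and 7551 with an unadjusted p under 0.05), and 10 to 571 with 1 array left out. Genes of the 14 lists past it numbered 8 in the fit reported, and 40, 33, 43, 19, 14, 2, 6, 0 and 0 under these 9 alternatives in the same order (85 and 103 with an unadjusted p under 0.05 within slides 1 and 2), with 0 to 25 when 1 array was left out. The replicate number as a block in place of slide gave 186 genes, with Cd163 at -3.28 and Cd5l at 6.03.

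Cd163 minus the mean of the other 7 genes was negative under all 25 alternatives that gave a value: -8.32 within slide 1, -3.84 within slide 2, -8.32 to -5.35 with 1 array left out. With the filter on all 11 arrays 5 of the 8 genes were tested, so it gave none. The Cd163 difference was negative under all 26: -6.56 within slide 1, -0.32 within slide 2, and -6.56 to -2.75 with 1 array left out; it passed the threshold with normexp background (-3.29) and array weights (-4.91). Cd5l was positive under all 26, from 5.11 to 7.24, and passed in 16. Vsig4 was negative in 3 of 25 and Msr1 positive in 7 of 25. Normexp, at an offset of 50, used median spot signals, and moved the median of all tested to -0.29.

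Slide 2 has 1 wild-type array, the dimmest of all, and no knockout array lies on slide 3. Females are in the wild-type group only. The causes of the changes between alternatives were not tested.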
